A study of Mus musculus with 5 samples.

Results

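The genes described here encode serpins and 4 smaller families of protease inhibitors and their relatives, the Kunitz-type Spint genes, the Kazal-type Spink genes, the Timp inhibitors of metalloproteases and the Itih heavy chains. They were taken by symbol (Serpin, Spint, Spink, Timp or Itih) from probe sets with a single gene symbol, which gave 43 of the 12393 genes on the array, with 30 serpins, 5 Itih, 4 Timp, 2 Spint and 2 Spink genes among them. Where a gene had several probe sets, the brightest one, by its mean log2(signal + 16), stood for it. Their RNA was compared between 3 arrays of Folr1+/+ and 2 arrays of Folr1-/- whole embryos of the C57BL6J strain, collected at gestation day 9.5. The receptor encoded by Folr1 brings folate into cells, and the comparison asks how embryos that lack it differ. Per the labels' protocols, the Folr1-/- embryos had Folr1+/- parents, and their dams ate a folate supplemented diet before and during pregnancy. Animals in general were kept on standard chow; it is not stated whether the dams of Folr1+/+ embryos also had the supplement, and any difference in diet would move together with genotype. Chorion, amnion and decidual tissue were dissected away, and the protocols do not name the yolk sac. It is also not stated if embryos were pooled for an array, so the p-values measure the spread between these arrays, whatever its source.

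Serpins trap a serine protease by offering it a loop that resembles a substrate; once the loop is cut, protease and inhibitor stay bound together. Some serpins have lost this activity and serve as hormone carriers, collagen chaperones or signals. Kunitz and Kazal inhibitors instead block the active site with a small rigid domain, and Timp proteins do so for matrix metalloproteases. In the early mouse embryo, blood serpins and several epithelial inhibitors are known as products of the visceral endoderm and yolk sac, whereas matrix-bound relatives are made by mesenchyme.

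Facts about the arrays as a whole touch each of these results. The probe set of Folr1 itself read 57.1, 50.0 and 40.2 in Folr1+/+ embryos against 50.2 and 41.8 in Folr1-/- embryos, with a log2 fold change of -0.07 ± 0.20 (SE, limma adjusted p = 0.86), so it does not check the genotype labels. The groups also differed in the 3 sex-linked genes that were tested: Xist was higher in the Folr1-/- arrays by 3.67 ± 0.24, and the Y-linked genes Eif2s3y and Kdm5d had -2.88 ± 0.53 and -2.20 ± 0.31 (log2 fold change, SE; limma adjusted p = 5e-06, 0.0035 and 0.00070). The 2 Folr1-/- arrays were unlike in the Y-linked genes. Folr1-/- replicates 1 and 2 read 104 and 3.13 for Eif2s3y, 25.15 and 0.796 for Kdm5d, and 419 and 770 for Xist. Whether an array held embryos of both sexes was not tested. Markers of visceral endoderm and early liver were higher in the Folr1-/- arrays in 24 of 24 tested genes (26 on the array; 4 of the 24 entered the fit only through the Folr1-/- arrays, where they are high), with a summed signal of 21400 to 21500 against 3740 to 4940 in the Folr1+/+ arrays. Of 11 tested markers of surface and gut epithelium 8 were higher (5 without Folr1-/- replicate 1) and 1 lower (0 with no filter), with sums of 7280 to 8030 against 2390 to 3210. Primitive erythroid markers were lower in 6 of 7 tested genes (214 to 623 against 5430 to 6360), neural progenitor markers in 6 of 7 (284 to 327 against 1080 to 1160) and markers of mesenchyme and somites in 7 of 8 (4 without Folr1-/- replicate 1; 751 to 768 against 1490 to 1660). Of these lower genes, 4 erythroid, 3 neural and 1 mesenchymal were tested only through the Folr1+/+ arrays. With no filter, 6 of the epithelial markers were higher. Trophoblast markers had 1 of 2 tested genes higher (425 to 498 against 276 to 310). Of the decidual markers 6 were on the array, with sums of 209 to 311 against 92.9 to 141. Hoxa10 and Prl8a2 passed among the 3 tested, but both entered the fit only through the Folr1-/- arrays, Prl8a2 with 143 and 34.6 there, and 0 passed with no filter, with the filter at the 60th percentile, or without Folr1+/+ replicate 3 or Folr1-/- replicate 1. Endothelial, macrophage and platelet markers had 0 changed genes among 8, 2 and 1 tested. With no filter, 1 endothelial marker was lower and 0 higher. It was Emcn, too dim for the main fit, at 39.6, 50.9 and 34.5 against 14.9 and 9.64. Its log2 fold change there was -1.02 ± 0.23 (SE, limma adjusted p = 0.037). Over all tested genes, 8.19% passed as higher and 6.79% as lower. No marker was at a signal of 0, but this does not show that each was detected, since detection calls were not used. The marker lists were chosen with earlier results of these data known, so their counts only describe these arrays. Alb, in the list of visceral endoderm and early liver, was dim and overlapped (17.6, 13.25 and 23.3 against 13.25 and 21.1). The other dim gene of that list was higher without overlap. The part of these tissue markers and of sex in the results on inhibitors was not tested. In whole embryos, fewer cells of a type and less RNA per cell cannot be told apart.

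Of the 43 genes, 15 were bright enough to test, having a mean log2 signal at or above the 40th percentile of all genes, and 28 were dimmer. Among the 15, 5 were higher in the Folr1-/- arrays (Spink1, Serpinb6a, Spint2, Serpinf2 and Spint1), 2 were lower (Serpinf1 and Itih5) and 8 did not pass an adjusted p of 0.05 (limma, Benjamini-Hochberg over 7436 genes). Over all tested genes, 15.0% passed, 8.19% higher and 6.79% lower. In each of the 7 both group means lay above the filter, so 0 of them were tested through 1 group alone; Serpinb9, which did not pass, was. The median log2 fold change was 0.36 over the 15 genes, 0.25 without Serpinb9, and -0.02 over all 7436. After median centring of the arrays, 733 genes of the table were higher and 361 lower, in place of 609 and 505 (67.0% against 54.7% of the calls higher), and the counts of inhibitor genes were again 5 and 2. Without Folr1-/- replicate 1 they were 3 higher and 0 lower, and 1 gene was lower without Folr1+/+ replicate 3. Over all genes, 369 passed when Folr1-/- replicate 1 was left out, 664 when Folr1-/- replicate 2 was and 636 when Folr1+/+ replicate 3 was, in place of 1114. The groups did not overlap in 9 of the 15, 6 higher and 3 lower, against 46.7% of all tested genes, 22.5% higher and 24.2% lower. The plot of fold changes with their intervals shows the 15 genes in order.

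**Figure D1:**
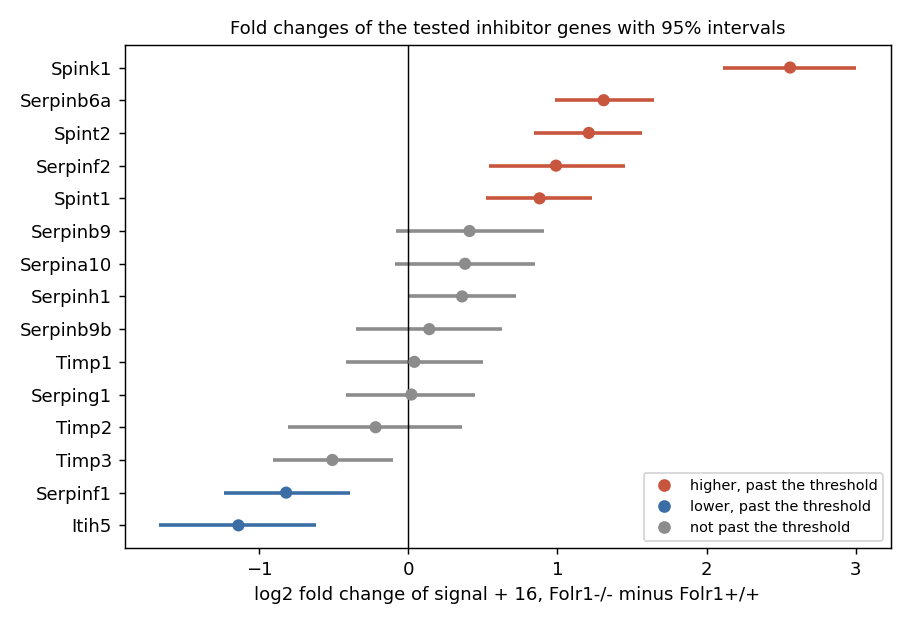
Log2 fold change (x axis, log2 of signal + 16, Folr1-/- minus Folr1+/+) of each of the 15 tested inhibitor genes, with limma's 95% confidence interval as a bar; red and blue mark genes past an adjusted p of 0.05. Spink1 lies farthest right at 2.56 and Itih5 farthest left at -1.14, and 8 genes in grey did not pass.

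Spink1 encodes a small secreted Kazal inhibitor of trypsin. Its signals were 42.8, 60.8 and 34.1 in Folr1+/+ embryos against 333 and 351 in Folr1-/- embryos. Both Folr1-/- arrays lay far above all Folr1+/+ arrays, with a ratio of the group means of 7.46. The log2 fold change of 2.56 ± 0.20 (SE, limma adjusted p = 1.3e-05) ranked 11th from the top among the 7436 tested genes. The visceral endoderm markers, 24 of 24 tested in a list chosen with earlier results of these data known, were higher in the same arrays. The other Kazal gene on the array, Spink4, was too dim to test, at signals of 4.47 to 12.0 in Folr1+/+ embryos against 0.762 and 2.27 in Folr1-/- embryos.

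Spint1 and Spint2 encode the Kunitz inhibitors HAI-1 and HAI-2, membrane proteins of epithelial cells that restrain matriptase, prostasin and related proteases on the cell surface. Both were higher in the Folr1-/- arrays. Spint2 had signals of 244, 193 and 247 in Folr1+/+ embryos against 513 and 577 in Folr1-/- embryos. Its groups were well apart, at a ratio of means of 2.39 and a log2 fold change of 1.21 ± 0.17 (SE, limma adjusted p = 0.00057). Its second probe set gave 107, 147 and 157 against 283 and 273, so both probe sets separated the groups. In Spint1 the signals were 189, 159 and 159 against 339 and 308, a smaller gap of 0.88 ± 0.16 (SE, limma adjusted p = 0.0039). Without Folr1-/- replicate 1 the fold change of Spint1 was 0.81 and its adjusted p 0.062. Of 11 tested epithelial markers, 8 were higher in the same arrays and 1 was lower. Trp63 was the lower gene (-0.99 ± 0.23, SE, limma adjusted p = 0.013). It was tested only through the Folr1+/+ arrays and had a limma adjusted p of 0.056 with no filter. The keratin genes Krt14 and Krt5 of the same list were dim, Krt14 lower without overlap and Krt5 with overlap.

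The promoters of the Spint pair are shown because both genes rose. They are the 250 bases before each start site in RefSeq annotation of GRCm38.p6, written in the direction of the gene. Capitals mark GC boxes (GGGCGG on either strand) and, in Spint1, the core AACCGG bound by Grainyhead-like factors, which regulate epithelial genes.
Spint1, chr2:119237110-119237359, plus strand: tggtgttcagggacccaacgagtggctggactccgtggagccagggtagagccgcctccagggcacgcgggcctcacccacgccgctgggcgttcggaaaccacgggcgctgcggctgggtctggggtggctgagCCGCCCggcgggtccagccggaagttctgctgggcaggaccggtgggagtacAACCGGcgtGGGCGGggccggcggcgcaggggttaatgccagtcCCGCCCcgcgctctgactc
Spint2, chr7:29281978-29282227, minus strand: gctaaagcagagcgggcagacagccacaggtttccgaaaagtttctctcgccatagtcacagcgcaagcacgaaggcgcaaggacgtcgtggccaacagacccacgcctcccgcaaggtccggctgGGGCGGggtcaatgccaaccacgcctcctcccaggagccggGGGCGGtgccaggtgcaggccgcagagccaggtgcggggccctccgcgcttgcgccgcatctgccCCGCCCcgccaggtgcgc
Each of the windows holds 3 GC boxes, and their G and C content is 72.8% in Spint1 and 69.6% in Spint2, against a median of 52.4% over 32851 promoter windows of the same length. A GC box was found in 32.7% of those windows and AACCGG in 5.62%. The AACCGG of Spint1 begins 63 bases before the start, and Spint2 has none in this window. These matches describe the letters and do not show binding.

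**Figure D2:**
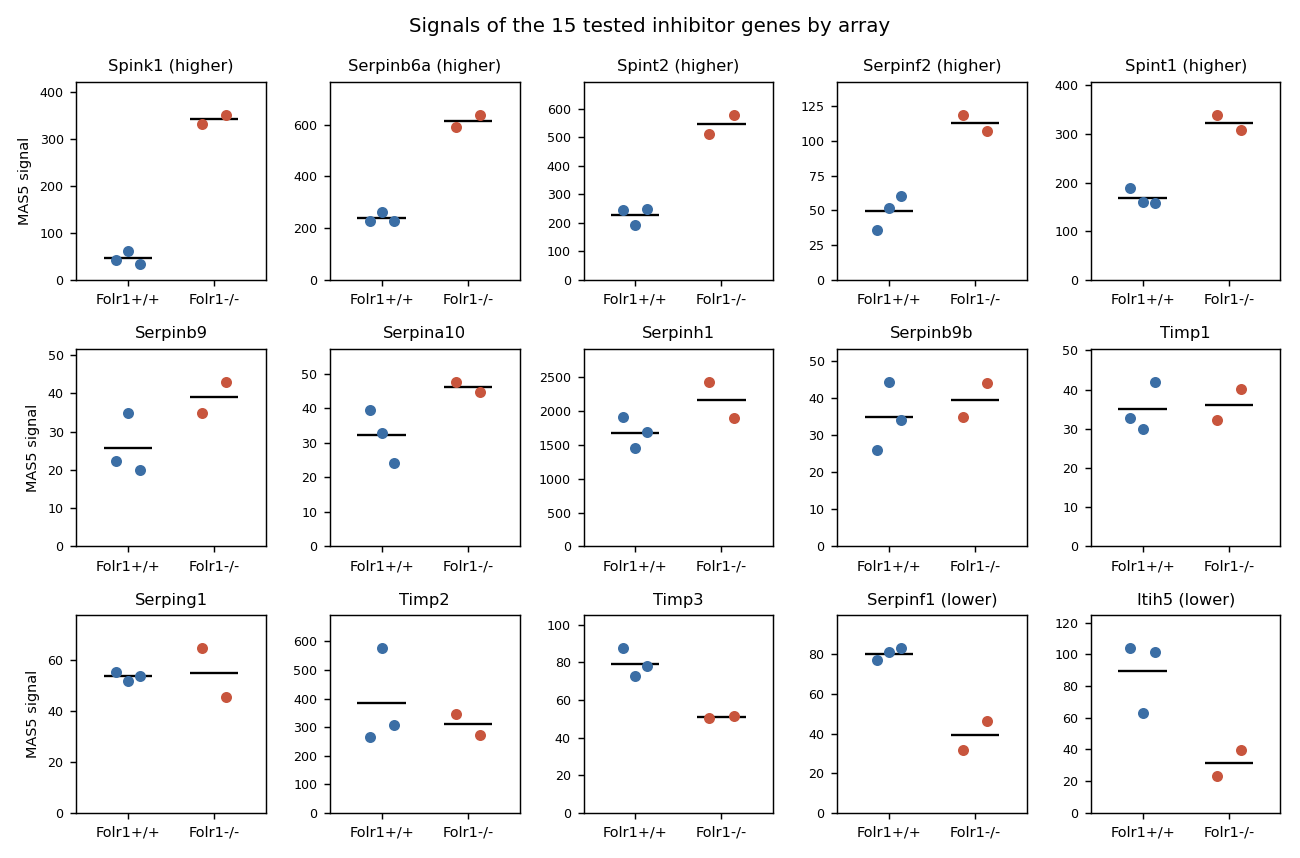
MAS5 signal (y axis, linear, starting at 0, with its own scale per gene) of the 15 tested inhibitor genes in each Folr1+/+ array (blue, 3 points) and each Folr1-/- array (red, 2 points), with the group mean as a line and genes past the threshold marked higher or lower. The groups lie apart without overlap in the 5 higher and 2 lower genes and also in Serpina10 and Timp3, which did not pass.

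Several proteases that the Spint proteins restrain were higher in the same arrays. Of the 13 genes on the array in the list of membrane serine proteases and growth factor activation, 5 were tested, each with both group means above the filter, and 5 were higher, with a median log2 fold change of 1.47, against -0.02 over all genes. Over all tested genes, 8.19% were higher. Tmprss2, a membrane serine protease, had signals of 111, 135 and 116 in Folr1+/+ embryos against 553 and 555 in Folr1-/- embryos (2.06 ± 0.16, SE, limma adjusted p = 1.1e-05). Prss8, which encodes prostasin, had 81.6, 60.3 and 60.5 against 317 and 284 (1.93 ± 0.18). Hepsin (Hpn) and matriptase (St14) followed with log2 fold changes of 1.47 ± 0.22 and 1.17 ± 0.21. The adhesion molecule gene Epcam, also an epithelial marker here, had 1.04 ± 0.27. Signals of these 5 genes did not overlap between the groups, as in 46.7% of all tested genes. Of all dim genes on the array, 8.33% were higher and 22.0% lower without overlap. Of the 8 dim genes, 0 were higher and 2 lower without overlap, the protease gene Tmprss4 (14.8, 21.5 and 24.5 against 6.50 and 4.20; -0.76 ± 0.20 and limma adjusted p = 0.068 with no filter) and the receptor gene Mst1r, at signals of 4.56 or less. Without Folr1-/- replicate 1, 3 of the 5 passed. With no filter, 4 of the 5 passed. The differences between the fold changes of proteases and inhibitors were not tested.

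Serpinf2 and Serpinf1 are next to each other in the RefSeq order of chromosome 11, and moved in opposite directions. Serpinf2 encodes alpha-2-antiplasmin, the main blood inhibitor of plasmin, and Serpinf1 encodes PEDF, a secreted serpin without protease inhibition that acts on vessels and neurons. Serpinf2 had signals of 36.2, 51.8 and 60.3 in Folr1+/+ embryos against 118 and 107 in Folr1-/- embryos. Every Folr1-/- value was above every Folr1+/+ value, at a ratio of means of 2.28 and a log2 fold change of 0.99 ± 0.21 (SE, limma adjusted p = 0.0080). Serpinf1 had 76.9, 81.0 and 83.0 against 31.95 and 46.2, with no overlap in the other direction. Its log2 fold change was -0.82 ± 0.20 (SE, limma adjusted p = 0.015), at a ratio of means of 0.486. A dim second probe set of Serpinf1, at 2.56 to 6.96 on all 5 arrays, did not separate the groups.

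Both results are less firm than that of Spink1. For Serpinf2 the adjusted p rose to 0.11 when Folr1-/- replicate 1 was left out (log2 fold change 0.93) and to 0.05 when Folr1-/- replicate 2 was (1.06), which at full precision did not pass, and with a pseudocount of 64 its fold change was 0.64. For Serpinf1 it was 0.18 with Folr1-/- replicate 1 left out (-0.63), 0.061 with Folr1+/+ replicate 3 left out (-0.80) and 0.056 with no filter on dim genes (-0.82). With a pseudocount of 64 the fold change of Serpinf1 was -0.49. The visceral endoderm markers were higher and the mesenchyme markers lower in the same arrays.

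The windows before these neighbouring start sites are shown because the genes changed in opposite directions. Both genes lie on the minus strand, and capitals mark matches on either strand. In Serpinf2 they are a FOXA core, a GATA core and the Grainyhead-like core named above, and in Serpinf1 the boxes spelled CCAAT and a GATA core. FOXA and GATA factors act in endoderm, and the letters of their cores follow the sequences.
Serpinf2, chr11:75439502-75439751, minus strand: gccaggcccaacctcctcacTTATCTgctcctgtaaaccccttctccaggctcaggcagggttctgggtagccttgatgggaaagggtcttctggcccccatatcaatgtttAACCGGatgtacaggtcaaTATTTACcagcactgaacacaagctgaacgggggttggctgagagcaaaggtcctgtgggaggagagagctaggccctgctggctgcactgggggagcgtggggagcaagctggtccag
Serpinf1, chr11:75422624-75422873, minus strand: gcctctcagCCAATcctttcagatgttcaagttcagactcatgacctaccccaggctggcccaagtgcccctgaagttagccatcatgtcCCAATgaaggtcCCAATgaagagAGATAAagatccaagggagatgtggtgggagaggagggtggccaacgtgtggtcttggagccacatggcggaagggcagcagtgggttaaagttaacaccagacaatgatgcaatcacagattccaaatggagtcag
The Serpinf2 window holds a FOXA core 119 bases before the start and a GATA core 230 bases before it. Serpinf1 holds 3 CCAAT boxes and a GATA core 137 bases before the start. Of all 32851 windows, 5.76% hold a FOXA core (TATTTAC or, as its other form, TGTTTAC), 16.6% a GATA core (AGATAA or, as its other form, TGATAA) and 33.8% a CCAAT box. Neither window holds a GC box, unlike those of the Spint pair. Motifs of the factors HNF4 and HNF1 were also searched for, with 0 matches in either window or in those of the Spint pair. Over all windows, 0.384% held the HNF4 motif and 0.00913% the HNF1 motif. The part of any of these factors in the changes was not tested.

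Targets of the blood serpins were tested beside them. Of 22 genes of clotting and fibrinolysis on the array, 8 were tested, 3 of them higher and 0 lower (median log2 fold change 0.57, against -0.02 over all genes). A share of 37.5% passed, against 15.0% of all tested genes. Of the 14 dim genes, 4 were higher and 2 lower without overlap, against 8.33% and 22.0% of all dim genes. With no filter, 4 genes of the list were higher. The dim clotting factor gene F5 was among them, at 2.46, 2.57 and 6.30 against 23.1 and 17.1 (0.87 ± 0.18, SE, limma adjusted p = 0.033). Plg, which encodes plasminogen, the precursor of the protease that Serpinf2 blocks, had signals of 38.3, 20.1 and 25.0 against 124 and 80.2 (1.43 ± 0.24, SE, limma adjusted p = 0.0022). Its Folr1+/+ mean lay under the filter, so it was tested only through the arrays where it is high; with no filter its adjusted p was 0.020. The clotting factor gene F10 rose by 1.14 ± 0.21, and the protein C receptor gene Procr by 0.96 ± 0.19. Both had group means above the filter. Prothrombin (F2) had 0.64 ± 0.24, with an adjusted p of 0.098. With the filter at the 60th percentile Plg, F10 and Procr were not tested, and 0 genes of the list passed without Folr1-/- replicate 1, where a lone Folr1-/- array was assumed to vary like the Folr1+/+ group.

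Antithrombin (Serpinc1) and heparin cofactor II (Serpind1), the blood inhibitors of thrombin, were too dim for the test. Serpinc1 had signals of 21.9, 12.9 and 16.2 in Folr1+/+ embryos against 36.6 and 41.0 in Folr1-/- embryos. Its groups did not overlap, and with no filter on dim genes its log2 fold change was 0.74 ± 0.22 (SE, limma adjusted p = 0.088). For Serpind1 the signals were 33.7, 17.7 and 18.9 against 22.8 and 30.6, and the groups overlapped. Serpina10, which encodes the inhibitor of factor X known as protein Z-dependent protease inhibitor, had 39.5, 32.9 and 24.3 against 47.8 and 44.8. Its groups did not overlap, but at 0.38 ± 0.21 (SE) with a 95% interval of -0.09 to 0.85 it did not pass (limma adjusted p = 0.26). Serping1, the C1 inhibitor of complement, had 55.3, 51.9 and 53.9 against 64.8 and 45.7, and an interval of -0.42 to 0.45.

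Clade B serpins stay inside cells, where they protect against proteases leaked from granules and lysosomes. Serpinb6a, which inhibits cathepsin G and related enzymes, had signals of 226, 261 and 226 in Folr1+/+ embryos against 591 and 636 in Folr1-/- embryos. The groups were widely apart, at a ratio of means of 2.58 and a log2 fold change of 1.31 ± 0.15 (SE, limma adjusted p = 0.00020). Visceral endoderm markers were higher in the same arrays, as were 8 of 11 tested epithelial markers, with 1 lower. Its relatives Serpinb6b and Serpinb6c were dim, with signals of 9.84, 17.3 and 24.2 against 42.3 and 26.5, and of 14.7, 4.01 and 2.04 against 18.5 and 16.5. Neither overlapped between groups or passed with no filter (limma adjusted p = 0.22 for each). These relatives are close copies that lie in 1 cluster with Serpinb6a on chromosome 13, and hybridisation of one gene's RNA to another's probes was not tested, so the level of each is uncertain.

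Serpinb9 and Serpinb9b, of the granzyme inhibitor branch, were tested and did not pass. Serpinb9 had 22.3, 35.0 and 19.9 against 34.95 and 43.1, with Folr1+/+ replicate 2 reaching the lower Folr1-/- array. Its log2 fold change of 0.41 ± 0.23 (SE) has an interval of -0.08 to 0.91, and that of Serpinb9b runs from -0.35 to 0.63. Among granule and other serine proteases, 6 of 32 genes on the array were tested, 3 higher and 0 lower (median 0.50). A share of 50.0% passed, against 15.0% of all tested genes. The granzyme, mast cell protease, cathepsin G and neutrophil elastase genes of the list were all too dim to test. Of the 26 dim genes, 1 was higher and 5 lower without overlap, against 8.33% and 22.0% of all dim genes. The higher genes were Htra1 (1.26 ± 0.37), Prss12 (1.01 ± 0.19) and Klk8 (0.80 ± 0.21). Htra1 was tested only through the Folr1-/- arrays, where it is high, and its adjusted p was 0.13 with no filter (limma). The count of higher genes in this list was 1 with no filter, 0 with the filter at the 60th percentile, 1 without Folr1-/- replicate 2 and 0 without Folr1-/- replicate 1.

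**Figure D3:**
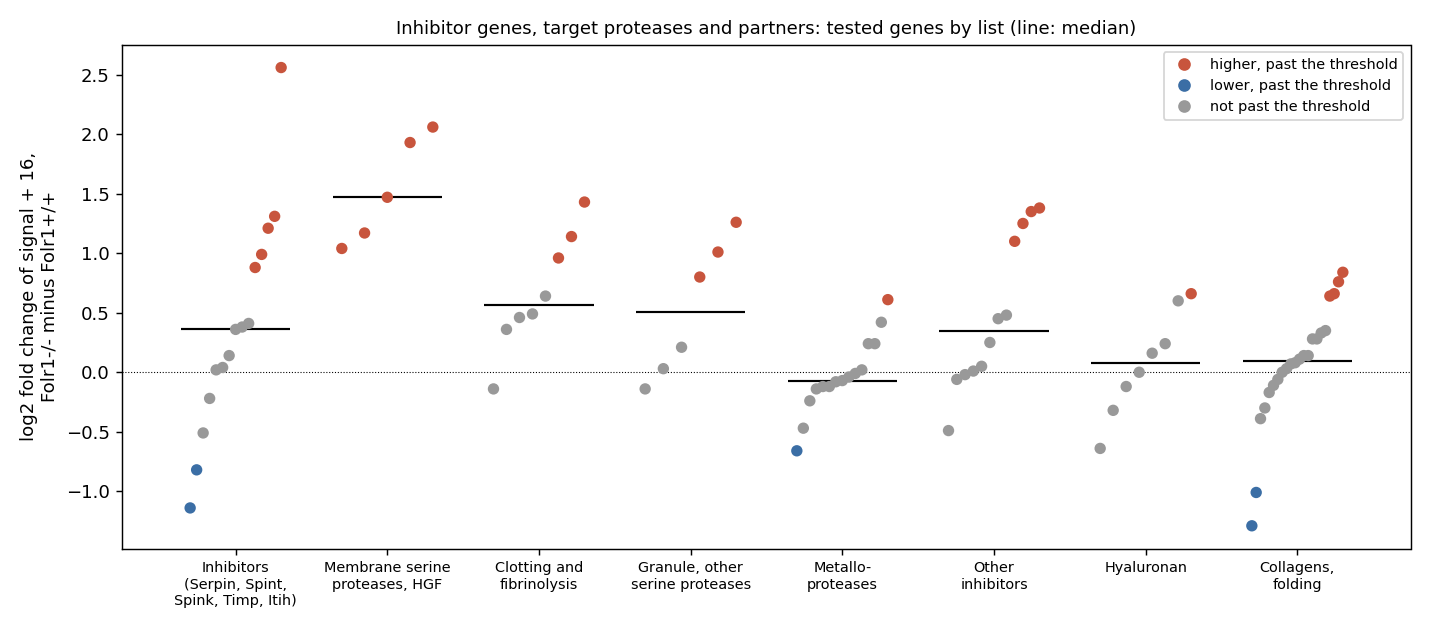
Log2 fold change (y axis, Folr1-/- minus Folr1+/+) of every tested gene in the inhibitor families and in 7 lists of target proteases, other inhibitors and matrix partners; each point is a gene, sorted within its list, and the line is the median. Medians run from 1.47 for membrane serine proteases to -0.07 for metalloproteases.

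The Timp genes encode secreted inhibitors of metalloproteases. None of the 3 that were tested passed. Timp3, which binds to the matrix, had signals of 87.5, 72.7 and 77.9 in Folr1+/+ embryos against 50.3 and 51.7 in Folr1-/- embryos. Its groups did not overlap, with a log2 fold change of -0.51 ± 0.18 (SE) and a limma adjusted p of 0.087, while a second bright probe set gave 65.4, 77.8 and 62.8 against 71.6 and 44.9, with overlap. X-linked Timp1 had 32.7, 30.1 and 42.0 against 32.3 and 40.2, and its 95% interval was -0.42 to 0.50. Timp4 was dim, at 3.30, 5.70 and 20.3 against 30.02 and 24.5 (adjusted p = 0.15 with no filter, limma).

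Timp2 gave different answers with different probe sets. The one that stands for the gene had signals of 264, 576 and 309 against 345 and 274, with Folr1+/+ replicate 2 far above the rest, and a log2 fold change of -0.22 ± 0.27 (SE, limma adjusted p = 0.62). Without that array the fold change was 0.10. Folr1+/+ replicate 2 also had the highest ratio of 3' to 5' Actb control signal, 39.5, with 21.1 to 30.5 on the other arrays. How this ratio bears on the probe sets of Timp2 was not tested. Another probe set had 109, 133 and 143 against 236 and 185, and the next 127, 85.5 and 119 against 200.5 and 166, both higher in each Folr1-/- array than in any Folr1+/+ array. With each probe set fitted on its own, an analysis added after these values were seen, their log2 fold changes were 0.65 ± 0.18 and 0.67 ± 0.20 (SE), with limma adjusted p of 0.046 and 0.052. The direction of Timp2 is thus not settled by this array. The other 3 probe sets of Timp2 were dim.

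**Figure D4:**
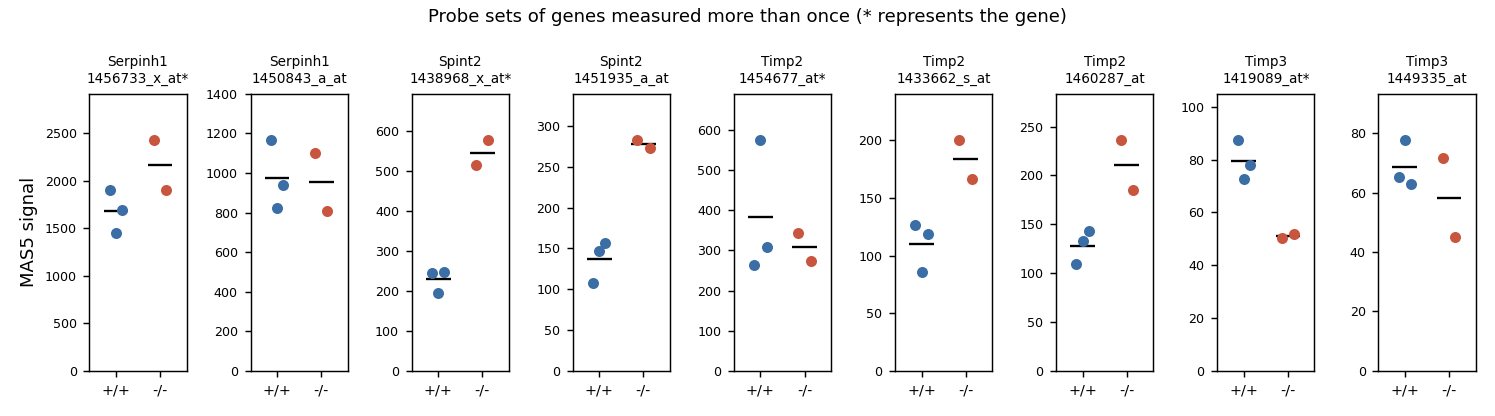
MAS5 signal (y axis, linear, starting at 0) in Folr1+/+ (blue) and Folr1-/- (red) arrays for each bright probe set of Serpinh1, Spint2, Timp2 and Timp3, with group means as lines; an asterisk marks the probe set that stands for the gene. Both Spint2 probe sets rise, while the starred Timp2 probe set overlaps between groups and its other 2 probe sets do not.

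Metalloproteases, the targets of the Timp proteins, passed about as often as genes in general. Of 15 tested metalloprotease genes (28 on the array), 1 was higher and 1 lower, a share of 13.3% against 15.0% of all genes, with a median of -0.07. Mmp2, a gelatinase whose activation involves Timp2, had signals of 825, 719 and 765 against 1388 and 1004 (0.61 ± 0.17, SE, limma adjusted p = 0.028). Adamts1, a protease of versican and other proteoglycans, had 211, 277 and 205 against 139 and 139 (-0.66 ± 0.18, limma adjusted p = 0.027). With no filter, 1 metalloprotease gene was higher and 0 lower. It was the dim gene Mmp23, at 3.28, 4.76 and 15.0 against 40.1 and 66.5 (1.55 ± 0.28, SE, limma adjusted p = 0.018). Neither Adamts1 nor Mmp2 passed with no filter, nor Mmp2 with no intensity trend. Neither passed when Folr1-/- replicate 1, Folr1+/+ replicate 2 or Folr1+/+ replicate 3 was left out, and Adamts1 also did not without Folr1-/- replicate 2.

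Itih proteins are heavy chains that attach to hyaluronan and stabilise the matrix around cells. Itih5 was the inhibitor-family gene with the most negative fold change. Its signals were 104, 63.0 and 101 in Folr1+/+ embryos against 23.5 and 39.6 in Folr1-/- embryos. Folr1+/+ replicate 2 was the lowest of its group but still above both Folr1-/- arrays, and the log2 fold change was -1.14 ± 0.24 (SE, limma adjusted p = 0.0081). It was -0.90 with an adjusted p of 0.13 without Folr1-/- replicate 1, and -0.68 with a pseudocount of 64. Mesenchyme and somite markers (7 of 8 tested) were lower in the same arrays. The liver-type Itih1, Itih2, Itih3 and Itih4 were dim, with no signal above 19.5. Of 8 tested genes of hyaluronan synthesis, binding and turnover, 1 was higher, a share of 12.5% against 15.0% of all genes. It was Has2, the main hyaluronan synthase of the embryo (149, 220 and 180.5 against 281 and 309, with 0.66 ± 0.18, limma adjusted p = 0.031). With no filter on dim genes Has2 did not pass. Has2 did not pass when replicate 1 or 3 of Folr1+/+, or either Folr1-/- array, was left out, nor after quantile normalization or with the replicate number as a block. Ambp, which encodes the bikunin light chain that joins the Itih heavy chains, was too dim over all arrays to test, at 0.974, 7.03 and 6.29 against 54.2 and 57.5. Its groups lay far apart, with a log2 fold change of 1.80 ± 0.22 when no filter was set (SE, limma adjusted p = 0.0036); it was named after its values were seen.

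Serpinh1 encodes Hsp47, the collagen chaperone of the endoplasmic reticulum. It had signals of 1904, 1446 and 1691 in Folr1+/+ embryos against 2432 and 1898 in Folr1-/- embryos, so that the lower Folr1-/- array fell just under the highest Folr1+/+ array. The log2 fold change was 0.36 ± 0.17 (SE, limma adjusted p = 0.17), and a second probe set gave -0.04 ± 0.19. Its clients and partners went both ways. Of 22 tested collagen and collagen folding genes, 4 were higher and 2 lower (median 0.10). A share of 27.3% passed, against 15.0% of all tested genes. The folding genes Crtap, P3h1 and Ppib, which form the prolyl 3-hydroxylation complex, had 0.84 ± 0.15, 0.76 ± 0.20 and 0.64 ± 0.14, and the basement membrane collagen gene Col4a2 had 0.66 ± 0.15. The fibrillar collagen genes Col2a1 and Col3a1 had -1.29 ± 0.19 and -1.01 ± 0.15. The count of higher genes was 1 when Folr1-/- replicate 1 was left out, and 2 when Folr1-/- replicate 2 or Folr1+/+ replicate 3 was.

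Inhibitors outside these families were higher in 4 of 12 tested genes and lower in 0 (38 on the array, median 0.35, or 0.15 over the genes with both group means above the filter). A share of 33.3% passed, against 15.0% of all tested genes. Cstb, an intracellular cystatin that blocks cathepsins, had signals of 223, 205 and 276 against 647.5 and 616.5 (1.38 ± 0.17, SE, limma adjusted p = 0.00025). The secreted cystatin gene Cst3 had 1.10 ± 0.22. Alpha-2-macroglobulin (A2m) and the cysteine protease inhibitor gene Ctla2a had 1.35 ± 0.30 and 1.25 ± 0.24, but entered the fit only through the Folr1-/- arrays, where they are high. With no filter their adjusted p was 0.062 and 0.029 (limma). Of the 26 dim genes of the list, 2 were higher without overlap, Ambp among them, and 7 lower. Over all dim genes, 8.33% were higher and 22.0% lower without overlap. When Folr1-/- replicate 1 was left out, or with the filter at the 60th percentile, 2 genes of this list were higher.

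The 28 dim genes were 22 serpins, 4 Itih genes, Spink4 and Timp4, and no array had a signal of any of them above 42.3. Their groups did not overlap in 9 genes, 5 higher and 4 lower, against 30.3% of all dim genes, 8.33% higher and 22.0% lower. Higher were Serpinb6b, Serpinb6c, Serpinc1, Timp4 and Itih2 (16.6, 4.43 and 16.7 against 16.8 and 19.5). Lower were Spink4, Serpina1c, Serpini1 and Serpinb5. Serpina1c, a gene of the alpha-1 antitrypsin cluster, had 22.2, 24.4 and 26.1 against 8.85 and 7.75, with a log2 fold change of -0.73 ± 0.19 (SE, limma adjusted p = 0.062) when no filter was set. The genes of that cluster are near-identical copies, so its level is uncertain. Neuroserpin (Serpini1), of neurons, had 30.6, 16.4 and 21.0 against 12.7 and 15.4, and maspin (Serpinb5), of stratified epithelium, 3.09, 8.31 and 14.2 against 1.70 and 1.32. In the other 19 dim genes the groups overlapped. Among them were Serpina3n, an acute phase antichymotrypsin-like serpin, at 2.83 to 5.09 in Folr1+/+ embryos against 3.07 and 3.82, the protein C inhibitor gene Serpina5, at 1.34 to 2.79 against 0.814 and 2.02, and Serpinb2, the plasminogen activator inhibitor PAI-2, at 0.965 to 1.17 against 0.351 and 5.11. With no filter, 0 of the 28 passed in limma, and 6 had an unadjusted p under 0.05. Around the filter, the dimmest tested members were Serpinb9 and Timp1, at mean log2 signals of 5.53 and 5.68, and the brightest left out were Serpinc1 and Serpind1, both at 5.33.

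**Figure D5:**
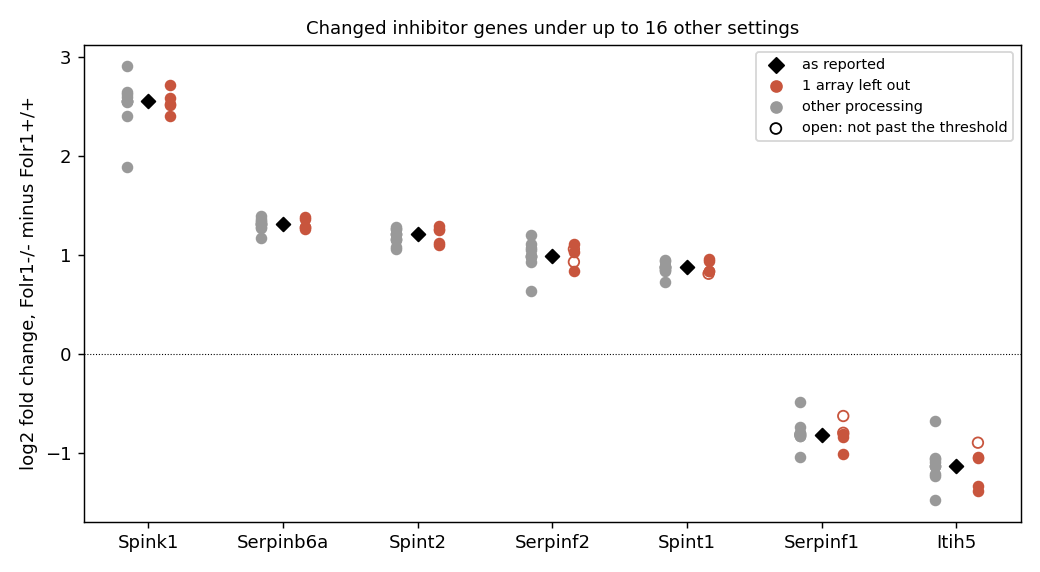
Log2 fold change (y axis, Folr1-/- minus Folr1+/+) of the 7 changed inhibitor genes as reported (black diamonds), with 1 array left out (red) and with other processing (grey); open symbols did not pass an adjusted p of 0.05. Spink1, Serpinb6a and Spint2 have filled symbols throughout, and the direction of each of the 7 genes is the same at every setting in which it was tested.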

How the data were processed

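RNA of 5 whole embryo samples, amplified in 2 rounds, was hybridised to Affymetrix 430A mouse arrays. The authors deposited a linear signal intensity for each probe set, made with MAS5 per the submitters' processing notes, which give no version. Their scaling left each array's mean, trimmed by 2% at each end, at 150.06 or 150.07, and was kept. Detection calls were not used here. Of 22690 probe sets, 20380 had 1 gene symbol in the platform annotation, 691 several, 1555 none listed, and 64 were controls. The rule matched 62 probe sets with 1 symbol; 3 others with several symbols were left out.

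After a log2(signal + 16) transform, limma 3.58.1 (R 4.3.3) compared the groups by lmFit and eBayes with an intensity trend over 7436 genes at or above the 40th percentile of mean log2 signal. Fold changes on this scale understate dim genes. The number of arrays limits the precision. Each inhibitor gene in the fit is named; of the dim ones, those whose groups do not overlap and those needed to describe a group; of each list, up to 4 passing genes or, with none, up to 3 with the smallest p; F2, Ambp, Tmprss4, Mst1r, Hoxa10 and Prl8a2 were chosen after their values were seen. Mmp23, Emcn, F5, Trp63, Krt14, Krt5 and Alb were also chosen after their values were seen. Members and lists were chosen with earlier results of these data known. The code was tested on simulated data. Settings tried in turn were pseudocounts, filters, scaling, probe set summary, variance model, array weights, a replicate block, an Actb 3'/5' covariate and leaving out each array. RefSeq sequences of GRCm38.p6 matched 6 of the 7 changed genes outside chromosome 18.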

Additional observations from a re-analysis of the deposited data

How the results depend on the processing

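Over the 16 other settings, the count of higher inhibitor genes was 4 or 5, apart from 3 without Folr1-/- replicate 1. The count of lower genes, 2 as reported, was 1 with no filter, 0 with the filter at the 60th percentile, where Itih5 and Serpinf1 were not tested, and 1 with the mean of probe sets, where Serpinf1 was too dim to test. Leaving out 1 array gave 3 to 5 higher and 0 to 2 lower inhibitor genes, and 369 to 1007 changed genes over the whole table. Of the 7 called genes, Spink1, Serpinb6a and Spint2 passed at all 16 settings, and 0 of the 7 reversed. With 1 array left out, the log2 fold change ran from -0.44 to 0.10 for Timp2, -0.07 to 0.15 for Timp1 and -0.18 to 0.21 for Serping1. Sign changes were seen in these uncalled genes: Timp2 with the mean of probe sets (0.05) and without Folr1+/+ replicate 2 (0.10), Timp1 with array weights (-0.02), without Folr1+/+ replicate 2 (-0.03) and without Folr1-/- replicate 2 (-0.07), and Serping1 without Folr1+/+ replicate 2 (-0.00019) and without Folr1-/- replicate 1 (-0.18). The cause was not tested. Whether the replicate numbers pair the samples is not settled. Deviations of the same-numbered arrays from their group means correlated at 0.0189 and -0.0558. With only 2 Folr1-/- arrays, the deviations of 1 mirror those of the other, so these values cannot decide it. With the replicate number as a block, 5 inhibitor genes were higher and 2 lower, and 899 of all genes changed. Where 1 Folr1-/- array was left out, the remaining one was assumed to vary like the Folr1+/+ group. Low signal limits the 28 dim genes.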
